A study of Mus musculus with 24 samples.

Results

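Open chromatin was compared between mouse embryonic stem cells with a second hairpin against Chd4 (named shRNA2) and cells with the hairpin named shluci, with 2 ATAC-seq libraries in each group. ATAC-seq uses a transposase to insert sequencing adapters into accessible DNA, and a peak is an interval where insertions pile up. A catalogue of 272857 windows, each reaching 250 bp to either side of a peak summit, was built from all 24 libraries of the series, and a window counted as called by a library when a peak of its list overlapped it by at least 1 bp. A window was lost when both shluci lists called it and neither shRNA2 list did, and gained in the reverse case. Of 56620 windows called by both shluci lists, 15338 were lost (27.1%), and of 41720 called by both shRNA2 lists, 9144 were gained (21.9%). The balance depended on the rule: with only peaks at a −log10 q of at least 10 the counts were 6820 lost and 1001 gained, and with at least 50% of the window covered by peaks 6393 and 492. Without shRNA2 replicate 2 the balance turned, with 22589 lost and 34401 gained. Lost and gained are statements about the 4 lists, since only peak lists were analysed here, and no single window was tested.

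All 4 libraries came from the E14 line, an established mouse embryonic stem cell line, with the genotype CTCF AID: the architectural protein CTCF carries a degron tag that degrades it when the auxin IAA is added. None of the 4 received IAA, so tagged CTCF was present in both groups. The cells grew without serum, in a medium with leukemia inhibitory factor (LIF), the MEK inhibitor PD0325901 and the GSK3 inhibitor CHIR99021. The other Chd4 hairpin, shRNA1, was run with the same 2 shluci libraries (2 libraries). The remaining 18 libraries covered a Chd8 set, and a control line and serum-grown cells, each with and without IAA. They also covered lines with added wild-type or mutated CTCF, both given IAA. The 18 thus include cells treated to degrade tagged CTCF. Hairpin sequences, the time after delivery of the hairpin and the remaining level of CHD4 are not given in the sources used here. Nothing states that the libraries of a group came from separate cultures, so their spread may be technical.

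CHD4 is an ATPase that slides and repositions nucleosomes. It is the remodelling subunit of NuRD, which pairs it with the histone deacetylases HDAC1 and HDAC2 and with MBD, MTA and GATAD2 proteins, and it also works with ADNP and the heterochromatin protein HP1γ (Cbx3) in the ChAHP complex. In embryonic stem cells these complexes are known for damping active enhancers, for holding lineage genes in check, and, in the case of ChAHP, for competing with CTCF at sites derived from transposable elements.

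Many of the strongest gained windows held the octamer ATGCAAAT, bound by POU factors such as OCT4, or CCAATCA, the CCAAT-type motif of NF-Y. Away from transcription starts, either motif was in 34.8% of the 333 gained windows with no shluci peak nearby and a peak at percentile 90 or above in the shRNA2 lists, against 18.4% of the distal windows called by all 4 lists at the same percentiles and 11.3% of all distal windows. The 4 windows printed here are the strongest of them with a motif inside the central 201 bases and no exon there. The sequences are the plus strand of GRCm38.p6 (mm10), 5′ to 3′, named by the gene with the nearest transcription start, and the capitals mark octamer and NF-Y letters on either strand.
Gm6863 window, chr12:96849579-96849779: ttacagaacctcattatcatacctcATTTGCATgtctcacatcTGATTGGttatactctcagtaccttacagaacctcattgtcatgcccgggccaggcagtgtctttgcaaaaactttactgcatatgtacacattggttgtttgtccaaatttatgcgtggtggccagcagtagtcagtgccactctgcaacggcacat
Gm26257 window, chr10:51082326-51082526: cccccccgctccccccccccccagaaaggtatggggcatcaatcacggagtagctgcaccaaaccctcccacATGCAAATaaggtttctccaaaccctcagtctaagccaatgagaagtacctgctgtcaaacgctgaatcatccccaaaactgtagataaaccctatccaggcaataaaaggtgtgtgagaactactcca
Rbm11 window, chr16:75603720-75603920: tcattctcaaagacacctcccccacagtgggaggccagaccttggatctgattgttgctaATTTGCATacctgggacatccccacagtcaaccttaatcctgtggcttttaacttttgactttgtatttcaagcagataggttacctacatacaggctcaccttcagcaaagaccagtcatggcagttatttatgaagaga
Gm48253 window, chr13:7826538-7826738: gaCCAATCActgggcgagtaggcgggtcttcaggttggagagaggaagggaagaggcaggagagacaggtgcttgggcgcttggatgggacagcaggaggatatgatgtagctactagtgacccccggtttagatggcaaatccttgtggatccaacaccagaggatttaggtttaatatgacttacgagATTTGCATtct
In the Gm6863 window the octamer stands 10 bases before the NF-Y letters, an arrangement taken up again with the results on repeated sequence. Neither shluci list had a peak in any of these windows, while the shRNA2 lists placed the Gm6863 window at percentiles 99.5 and 99.1, the Gm26257 window at 99.2 and 98.8, the Rbm11 window at 99.2 and 98.0, and the Gm48253 window at 99.5 and 97.5. A percentile here is the rank of a peak by the authors' −log10 p within its own list, with 100 for the strongest.

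The KLF motif GGGTGTGG was more frequent in the lost than in the gained distal windows, though not in those at least 50% repeat-masked, and 3 lost windows chosen in the same way show it in capitals, again on the plus strand of GRCm38.p6 and on either strand of the motif.
Gm43166 window, chr5:131094798-131094998: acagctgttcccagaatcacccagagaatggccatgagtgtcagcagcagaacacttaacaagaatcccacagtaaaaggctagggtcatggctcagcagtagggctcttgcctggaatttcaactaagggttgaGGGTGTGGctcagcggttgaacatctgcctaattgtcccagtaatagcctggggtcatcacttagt
Amotl2 window, chr9:102715102-102715302: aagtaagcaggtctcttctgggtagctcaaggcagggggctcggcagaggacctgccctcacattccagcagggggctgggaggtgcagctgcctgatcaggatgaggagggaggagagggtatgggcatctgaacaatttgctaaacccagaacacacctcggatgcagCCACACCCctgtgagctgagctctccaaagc
Gpr4 window, chr7:19211212-19211412: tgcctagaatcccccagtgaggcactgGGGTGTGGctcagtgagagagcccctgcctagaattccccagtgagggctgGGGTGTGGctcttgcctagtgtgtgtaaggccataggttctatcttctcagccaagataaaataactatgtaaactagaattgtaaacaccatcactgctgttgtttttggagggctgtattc
The shluci percentiles were 95.3 and 91.6 for the Gm43166 window in an intron of Galnt17, 91.8 and 93.6 for the Amotl2 window, and 93.4 and 91.1 for the Gpr4 window. No shRNA2 peak touched any of the 3.

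The 4 lists differed in length and width. The shluci lists held 135583 and 93091 peaks (replicates 1 and 2) and the shRNA2 lists 141742 and 80619, so replicate 1 was the longer list in both groups. Median peak length was 104 and 135 bp with shluci and 80 and 108 bp with shRNA2. Read depth was not given by these files, so counting intervals could not be computed. A peak lay within 1000 bp of a start of the 5 embryonic stem cell markers (Pou5f1, Sox2, Nanog, Zfp42 and Esrrb) for 4 and 5 of them in the shluci lists, but for 1 and 3 in the shRNA2 lists. For the 6 fibroblast markers the counts were 4 and 0 with shluci and 1 and 3 with shRNA2, for the 6 of endoderm and mesoderm 5 and 5 against 3 and 4, for the 4 of trophoblast 3 and 3 against 3 and 4, and for the 4 neural markers 2 and 3 against 1 and 2. Open promoters of lineage genes are common in stem cells, so these counts check cell identity only loosely.

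Loss was larger than the difference that followed the replicate number, and gain only slightly larger. Against 15338 lost and 9144 gained windows, 8340 windows were called by both replicate 1 lists and neither replicate 2 list, and 2190 by both replicate 2 lists and neither replicate 1 list. Disagreement within a group was wider. There were 36384 windows called by 1 shluci list and no shRNA2 list, and 33607 called by 1 shRNA2 list and no shluci list. All 4 lists called 24238 windows. Lost windows had weaker shluci peaks than windows called by all 4, with a median percentile of 54.9 against 81.2, although 3209 of them stood at percentile 75 or above and only 1322 below 25. Gained windows had a median shRNA2 percentile of 55.0, against 76.0 for windows called by all 4. In 4723 lost windows (30.8%) an shRNA2 peak lay outside the window but less than 500 bp away, and in 1724 gained windows (18.9%) a shluci peak did. The windows without such a neighbour, 10615 lost (18.7% of those called by both shluci) and 7420 gained (17.8% of those called by both shRNA2), are called isolated below. This subset was added after the data were seen.

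Protein-coding promoters, windows centred within 500 bp of an annotated start, were the class with the widest gap between loss and gain when all windows were counted. Of 11362 such windows called by both shluci lists 2416 were lost (21.3%), while of 6602 called by both shRNA2 lists only 340 were gained (5.15%). Isolated windows gave 11.4% and 3.03%, a narrower gap than that of isolated windows far from genes. There the balance turned: intergenic windows more than 100 kb from any annotated gene were lost in 225 of 1170 cases (19.2%) and gained in 462 of 1450 (31.9%), or 14.9% and 27.9% for isolated windows. Introns were the largest class of lost windows (41.1% of them), with 6302 of 20867 lost (30.2%) and 3699 of 15148 gained (24.4%). Intergenic windows within 100 kb of an annotated gene were the largest class of gained windows (41.9%), with 3829 of 14959 gained (25.6%) and 27.7% lost.

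**Figure D1:**
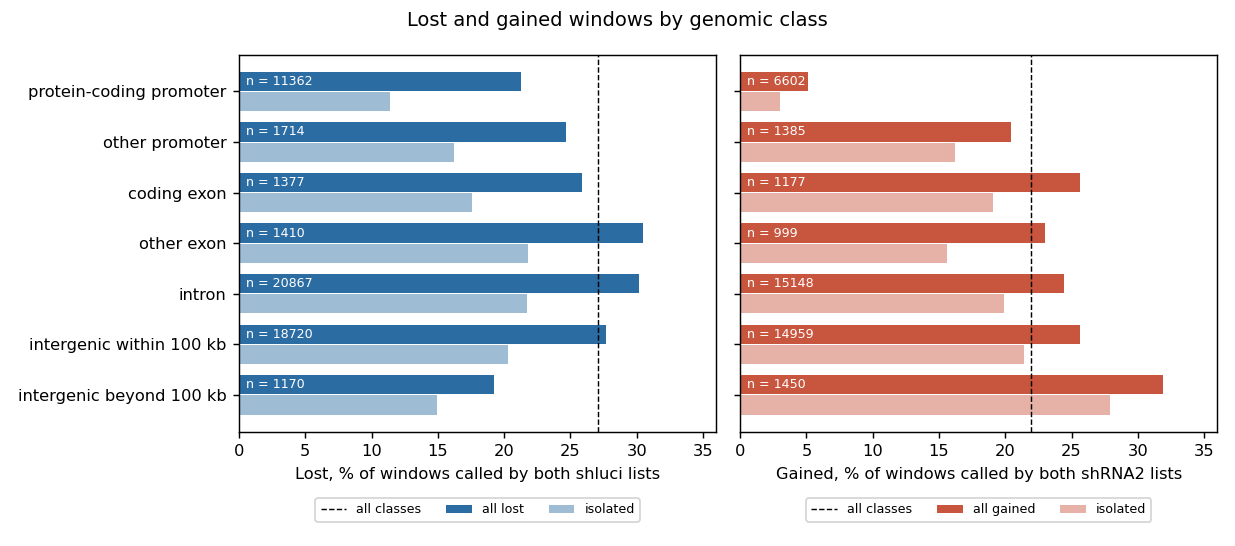
Percentage of windows lost (left, of windows called by both shluci lists) and gained (right, of windows called by both shRNA2 lists) in 7 genomic classes; pale bars count isolated windows only, n is the number of windows in the denominator, and the dashed line is the percentage over all classes. Protein-coding promoters have the shortest bar for gain (5.15%), and intergenic windows beyond 100 kb have the longest (31.9%).

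The same classes were given for strong peaks alone. For windows at percentile 75 or above in the shluci lists, 12.3% of protein-coding promoters, 15.2% of intronic windows and 7.17% of intergenic windows beyond 100 kb were lost. At percentile 75 or above in the shRNA2 lists, 1.97% of protein-coding promoters were gained, against 13.6% of intronic windows and 17.3% of intergenic windows beyond 100 kb. Isolated gained windows lay at a median of 19.6 kb from the nearest annotated start, isolated lost windows at 9.09 kb and windows called by all 4 lists at 8.41 kb. Beyond 50 kb lay 24.6% of isolated gained, 10.4% of isolated lost and 14.2% of windows called by all 4. Promoters made up 17% and 20.7% of the peaks in the shluci lists and 12.2% and 18.4% in the shRNA2 lists, so the library ranges overlapped.

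The strongest lost promoter windows by rule belonged to Gstm1 (a glutathione transferase), Pip4p1 (a phosphoinositide phosphatase), the predicted gene Gm28635, Lrrn4 (a leucine-rich repeat membrane protein) and Nutf2 (which carries the GTPase Ran into the nucleus). At the Gstm1 promoter, chr3:108017936-108018436, both shluci lists placed the window at percentile 100, yet an shRNA2 peak lay 163 bp outside it. The shRNA2 peaks were equally close at Pip4p1 (67 bp), Gm28635 (5 bp), Lrrn4 (140 bp) and Nutf2 (141 bp). All 5 promoters thus had an shRNA2 peak beside the window, so these calls do not show a closed promoter.

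Promoters with no shRNA2 peak within 500 bp were picked from the isolated windows after their values were seen. At the promoter of G3bp1, which nucleates stress granules (chr11:55469156-55469656), the shluci lists gave percentiles 98.4 and 97.7, and the nearest shRNA2 peak was 8131 bp away. The promoter of Gins2, a subunit of the replicative helicase (chr8:120588958-120589458), stood at 97.9 and 97.4 with shluci, and its nearest shRNA2 peak was 6490 bp away. At Csnk1g1, a casein kinase gene (chr9:65908770-65909270), the shluci percentiles were 96.5 and 96.8 and the distance was 5330 bp. These 3 promoters were called by 18 of the 18 libraries outside the Chd4 set and by neither shRNA1 library. Unlike those 3, the promoter of Ptpn4, a tyrosine phosphatase gene (chr1:119837296-119837796), kept peaks with shRNA1, at percentiles 73.8 and 62.7 after 98.9 and 96.3 with shluci, while its nearest shRNA2 peak was 11655 bp away.

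Gained promoters were few and held weaker peaks. The strongest by rule was Hsf3, a heat shock factor gene on the X chromosome (chrX:96367647-96368147), at percentiles 98.0 and 96.7 with shRNA2 and with no shluci peak within 47153 bp. It was also called by both shRNA1 lists (93.6 and 95.7) and by 9 of the 18 libraries outside the Chd4 set. Next by rule came Ghr, the growth hormone receptor gene (88.8 and 97.3), Atp2c1, a Golgi calcium and manganese pump (94.5 and 91.4), Dct, a pigment enzyme gene (95.7 and 89.7), and Cacnb2, a calcium channel subunit (93.0 and 91.4). At Ghr and Dct, shluci peaks lay 165 and 42 bp outside the window. The 5 promoters were called by 8 to 15 of the libraries outside the Chd4 set, so none was called by the shRNA2 lists alone.

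Away from promoters, the 5 strongest lost windows lay in introns of the long noncoding RNA gene 4933436I20Rik and of Dglucy, Zfp975, Dnajc3 and Ppp1r9a, and each had an shRNA2 peak within 248 bp of its edge. Among isolated distal windows, chosen after their values were seen, the strongest lost one was in an intron of Sh3pxd2a, which encodes a podosome scaffold (chr19:47450590-47451090). Its shluci percentiles were 98.0 and 99.3, the nearest shRNA2 peak was 6526 bp away, and it held a match to the CTCF consensus. An intronic window of the signalling receptor gene Notch2 (chr3:98024220-98024720) stood at 97.9 and 97.5 with shluci, with an shRNA2 peak 1448 bp away and shRNA1 percentiles of 67.6 and 80.2. All 10 strongest isolated lost distal windows were called by 18 of the 18 libraries outside the Chd4 set.

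The strongest gained distal windows were called by 1 to 11 of the 18 libraries outside the Chd4 set, and the 5 strongest lost ones by 14 to 18. Of the 5 by rule, 3 had no shluci peak within 500 bp: an intergenic window near Gm26596 (chr10:112893351-112893851) at shRNA2 percentiles 99.6 and 99.7, the Gm6863 window (chr12:96849429-96849929) at 99.5 and 99.1, and a window near Gm24132 (chr8:96729159-96729659) at 99.2 and 98.9. The libraries outside the Chd4 set called them in 1, 3 and 6 of 18 cases. The other two, a coding exon window 1092 bp from the start of Tram1l1 and an intergenic window (chr4:89803967-89804467) more than 100 kb from any start, had shluci peaks 18 and 30 bp from the window and were called by 11 and 5 of the 18. Among the 10 strongest isolated ones, 4 were called by none of the 18: the windows near Gm4059, Gm26257, Gm6489 and Gm21036. The shRNA1 lists called all 4 of these, at percentiles between 91.2 and 99.6.

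The calls in the remaining libraries separated the sets. The 8 libraries of the control and CTCF lines called 84.4 to 88.0% of isolated lost windows, the 6 of the Chd8 set 66.8 to 78.9% and the 4 with serum 47.7 to 59.6%. The serum lists were shorter (59786 to 82502 peaks, against 120137 to 166697 in the other 14) and called only 72.0 to 80.1% even of windows called by all 4 lists. For isolated gained windows the 3 kinds of library gave 28.0 to 34.7%, 20.7 to 26.7% and 11 to 16.7%. Of the 7420 isolated gained windows, 2137 were called by none of the 18 libraries (28.8%), against 180 of the 10615 isolated lost windows (1.70%). At percentile 90 or above the share called by none was 23.2% of isolated gained windows. The shRNA1 lists, which share no library with shRNA2, called 37.4 and 27.8% of isolated lost windows and 54.3 and 42.5% of isolated gained windows. For isolated gained windows at percentile 90 or above (349 windows) those shares were 89.4 and 84.8%, while 10.3 to 32.1% were called in the 18 libraries outside the set. Of the 291 isolated lost windows at percentile 90 or above, the shRNA1 lists called 61.5 and 52.6%, so each kept most of them. The 18 libraries outside the set called 83.5 to 99.7% of these lost windows. Set against the same shluci lists by the same rule, shRNA1 lost 12421 windows (21.9% of 56620) and gained 10228 (21.3% of 48085).

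**Figure D2:**
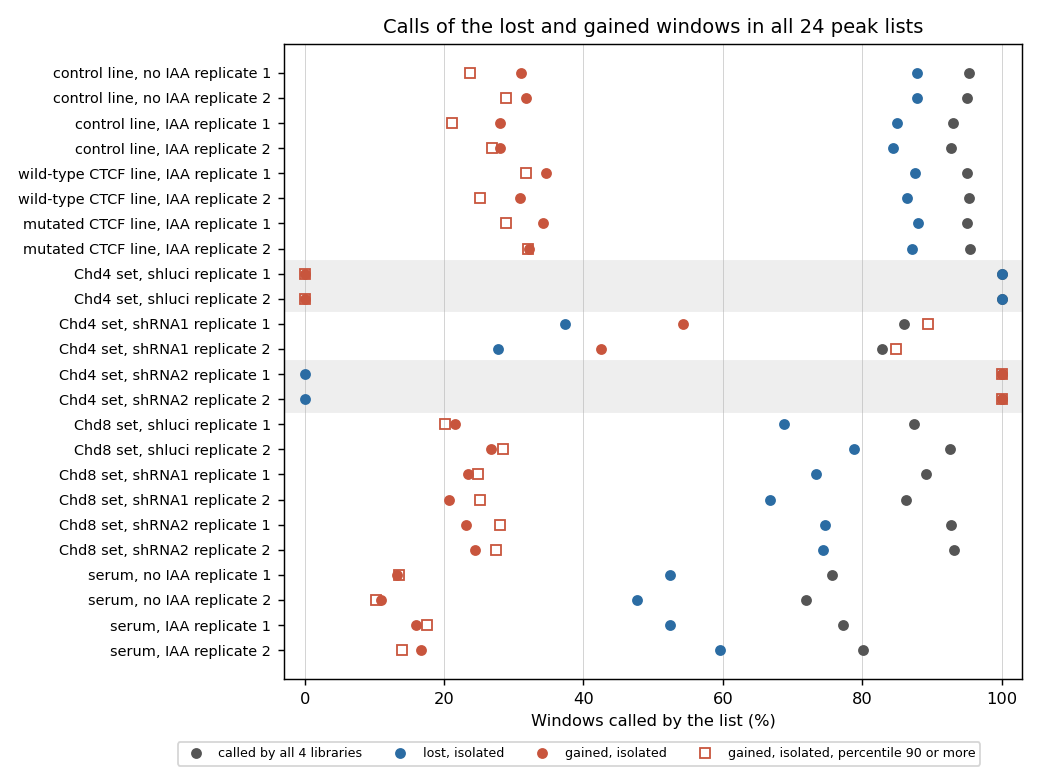
Percentage of isolated lost windows (blue), isolated gained windows (red circles), isolated gained windows at percentile 90 or above (open squares) and windows called by all 4 libraries (dark grey) that each of the 24 lists calls; shaded lines are the 4 libraries that define the sets. The strongest gained windows are called at 89.4 and 84.8% by the shRNA1 lists and at 10.3 to 32.1% by the 18 lists outside the Chd4 set.

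Sequence was not used to choose the windows, and 13 short motifs were counted on both strands of each distal window. The octamer was in 9.35% of 6996 isolated gained distal windows, 4.44% of 9047 isolated lost ones, 6.60% of 17839 called by all 4 lists and 4.34% of all 244902 distal windows. The NF-Y letters were in 13.3%, 7.41%, 9.40% and 7.53% in the same order. The KLF motif went the other way, with 7.60% of gained, 9.51% of lost, 8.16% of windows called by all 4 and 7.48% of all. The ESRRB motif TCAAGGTCA (3.23, 3.03, 3.46 and 2.60%), the SOX motif CATTGTT (8.75, 9.27, 9.28 and 8.50%) and the AP-1 motif TGANTCA (15.6, 16.1, 16.7 and 15.8%) differed little between the sets. The TEAD motif GGAATGT was in 8.66% of gained and 9.77% of lost windows, and the GATA motif AGATAAG in 6.12% and 5.39%. The CTCF consensus, of 14 bases with 1 mismatch allowed, was in 5.03% of gained, 6.79% of lost, 6.97% of windows called by all 4 and 5.28% of all. This order was not stable: over lost and gained windows of all classes the CTCF share was 6.07% and 4.68%, but with peaks at a −log10 q of at least 10 it turned to 5.43% and 5.79%. The E-box CACCTG was in 35.1% of gained, 40.3% of lost, 39.0% of windows called by all 4 and 37.5% of all, and the CRE letters TGACGTCA in 0.915, 0.453, 0.684 and 0.559%.

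The octamer and NF-Y shares of gained windows were highest in the strongest peaks. From percentile 0 to 25 up to 90 to 100, the octamer share of isolated gained distal windows went through 7.0, 7.81, 9.12, 12.0 and 16.8%, and the NF-Y share through 10.2, 9.98, 13.1, 17.9 and 27.0%. Windows called by all 4 lists, ordered by their shRNA2 percentile, reached 8.35% and 11.3% in the top class. Isolated lost windows reached 7.76% and 8.68%. Read per motif, 750 of 2446 distal octamer windows called by both shRNA2 lists were gained (30.7%) and 527 of 2359 called by both shluci lists were lost (22.3%), against 25.3% and 28.7% of all distal windows. For KLF windows the values were 23.8% gained and 30.7% lost, and for CTCF windows 18.7% and 26.9%. The octamer difference was not stable over all settings: with gain read from shRNA2 replicate 1 alone the gained windows held it in 6.0% against 6.07% of windows called by all lists used, and with windows covered to at least 50% in 9.11% against 10.8%. The NF-Y difference kept its direction in those settings, at 9.75% against 9.02% and 13.4% against 7.01%.

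**Figure D3:**
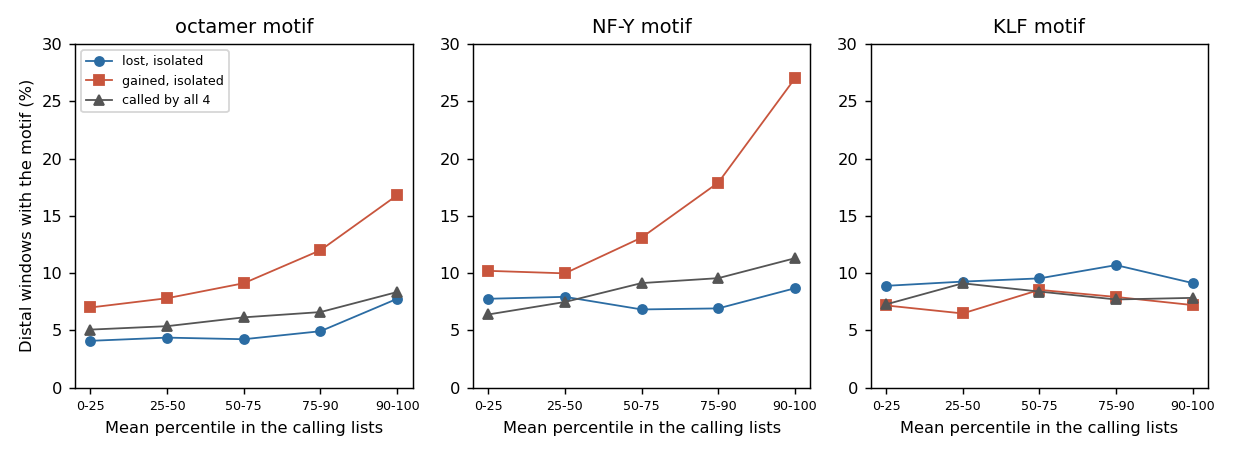
Percentage of distal windows with the octamer, NF-Y or KLF motif by mean percentile of the peak in the calling lists (shluci lists for lost windows, shRNA2 lists for gained windows and for windows called by all 4). For gained windows the octamer share goes from 7.0 to 16.8% and the NF-Y share from 10.2 to 27.0%, while the KLF share stays between 6.48 and 8.54%.

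Some of these matches came in a repeated arrangement. In 144 isolated gained distal windows the letters ATTTGCAT (the octamer read on the other strand) were followed after exactly 10 bases by TGATTGG, as in the Gm6863 window, the most frequent spacing of the pair. The spacing was noticed in these windows, which were chosen as called by shRNA2 and not by shluci, so its shares in the sets and in these 4 lists are a description only. The pair was in 2.06% of isolated gained, 0.314% of windows called by all 4 lists, 0.0221% of isolated lost (2 windows) and 0.284% of all distal windows. The 144 windows lay on 20 chromosomes, and 89.6% of them were at least 50% soft-masked as repeats in the genome sequence. The kind of repeat was not determined. The shRNA1 lists called 119 and 108 of the 144, and 66 were called by none of the 18 libraries outside the Chd4 set. Without windows holding the pair, the octamer was still in 7.44% of isolated gained windows, against 6.31% of those called by all 4, and NF-Y in 11.5% against 9.11%. At percentile 90 or above, 19 of 333 isolated gained distal windows held the pair. The 314 others held the octamer in 11.8% and NF-Y in 22.6%, against 16.8% and 27.0% of all 333.

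Counted per library over all peaks, the pair lay within 250 bp of the summit in 0.169 and 0.153% of shluci peaks and in 0.495 and 0.607% of shRNA2 peaks. The shRNA1 lists gave 0.572 and 0.699%, and no library outside the Chd4 set exceeded 0.202%. The genome held 3286 copies of the pair, of which 55 and 56 lay in a shluci peak and 174 and 133 in an shRNA2 peak. Control libraries differed as widely in copies covered: the 2 shluci lists of the Chd8 set covered 48 and 191 copies. In share of peaks these 2 lists lay closer together, at 0.135 and 0.202%. The 8 lists of the control and CTCF lines covered 182 to 239 copies, although their summits were less often near one (0.0919 to 0.123% of peaks). How the authors treated reads that map to several repeat copies is not given in the sources used here. The octamer alone was within 250 bp of 4.2 and 4.42% of shluci summits and of 5.37 and 5.73% of shRNA2 summits, and NF-Y of 8.23 and 8.47% against 9.10 and 9.44%.

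**Figure D4:**
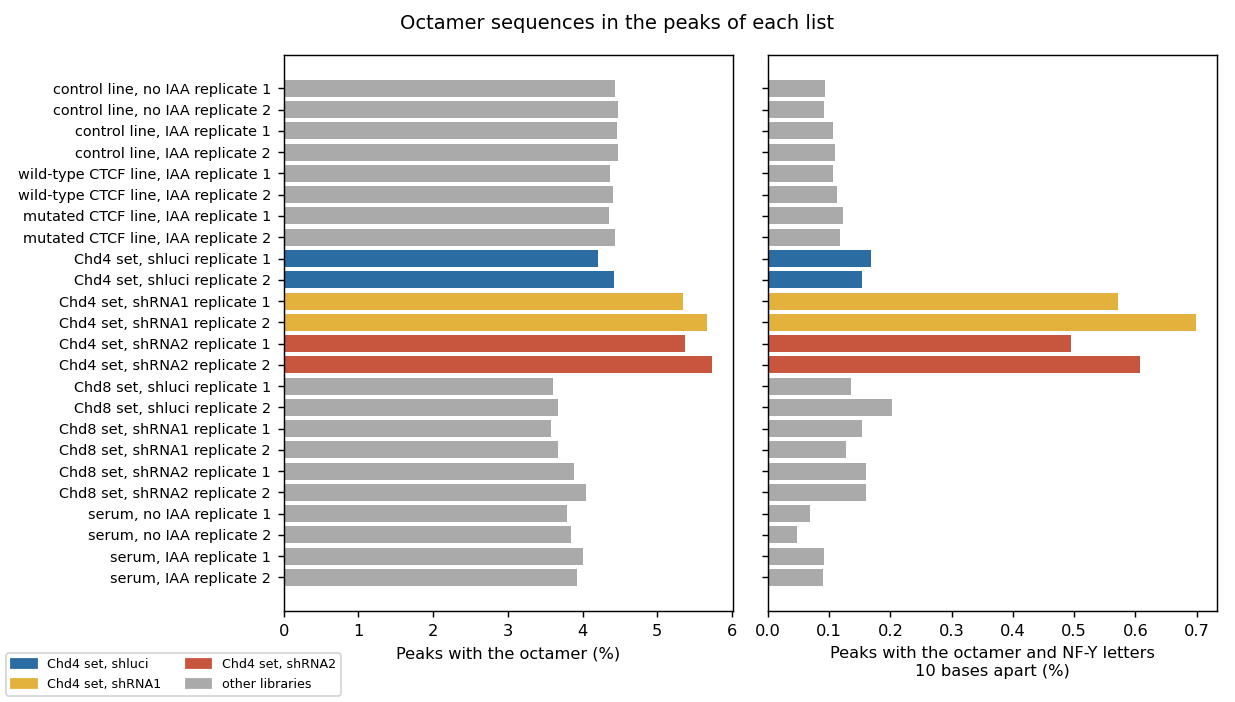
Percentage of peaks with the octamer within 250 bp of the summit (left) and with the octamer and NF-Y letters 10 bases apart (right) in each of the 24 lists; blue is Chd4 shluci, red shRNA2, yellow shRNA1 and grey all other libraries. The 4 lists with Chd4 hairpins lie between 0.495 and 0.699% for the pair, above the 20 others, which reach 0.202%.

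Repeats and base composition moved with the calls. At least 50% of the window was repeat-masked in 18.4% of isolated gained, 11% of isolated lost and 12.9% of distal windows called by all 4 lists. The median G+C content of these sets was 46.9, 48.9 and 48.3%. With all distal windows cut into 5 classes of equal size by G+C, the share lost rose from 26.1% in the lowest to 32.1% in the highest, and the share gained fell from 31.2% to 19.0%. By chromosome the share lost ran from 21.5% on chromosome 3 to 35.8% on chromosome 11, with 33.2% on chromosome 19. Over 20 chromosomes it followed the mean G+C of the windows (Pearson correlation 0.84, Spearman correlation 0.82), a description in which chromosomes share the same 4 libraries. The share gained varied less, from 18.2% on chromosome 19 to 25% on chromosome 18. Mean G+C over all peaks was 49.9 and 50.9% in the shluci lists and 48.0 and 49.7% in the shRNA2 lists. The part that base composition plays in the calls was not tested.

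The shares tested per library were 4, each with 2 libraries a group and Benjamini-Hochberg adjustment over the 4. Repeats made up 18.7% ± 0.367 (SD, n = 2) of the bases within 250 bp of shluci summits and 20.9% ± 0.809 (SD, n = 2) of those around shRNA2 summits, a difference of 2.18 points against a spread of 0.888 (two-sided exact permutation p 0.33, adjusted 0.444). G+C content was lower by 1.56 points at a spread of 1.42, with the same exact permutation p and adjusted value, and so was the CTCF motif share, at 5.84% ± 0.0787 and 5.10% ± 0.473 (SD, n = 2 each), a difference of −0.742 points that turned to 0.682 with peaks at a −log10 q of at least 10. The promoter share differed by −3.53 points, within its spread of 5.10 (exact permutation p 0.667, adjusted 0.667). Single libraries decided its size: it was −0.434 points without shRNA2 replicate 1, −6.63 without shRNA2 replicate 2, −5.38 without shluci replicate 1 and −1.69 without shluci replicate 2. The G+C difference was −0.687 points without shRNA2 replicate 1 and −2.44 without shRNA2 replicate 2, and the CTCF difference was −0.407 points without shRNA2 replicate 1. With peaks at a −log10 q of at least 10 the promoter and repeat differences were −5.94 and 3.93 points. With the 4 lists reduced to the length of the shortest they were −5.55 and 2.88 points. With 2 libraries against 2 the smallest possible p is 0.33, so none could pass 0.05.

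Windows were assigned to the nearest protein-coding start within 100 kb. Of 14926 genes with a window called by both shluci lists, 7719 had at least 1 lost window and 5867 an isolated one. A gained window was found at 4103 genes, not all of them among the 14926, and 1149 genes had both an isolated lost and an isolated gained one. Over all these genes 28.5% of windows called by both shluci lists were lost and 18.6% of those called by both shRNA2 lists were gained. The count of lost windows was highest at Shroom3, an actin regulator of apical constriction (15 lost of 30 windows called by both shluci), and Myo10, a filopodial myosin (15 of 38). Irf2bpl (13 of 21), Etl4 (13 of 41) and Auts2, a gene of neural development (13 of 28), came next. These loci gained 0 to 3 windows each. Gained windows were most numerous at Ppm1h, a protein phosphatase gene (11 gained of 21 windows called by both shRNA2). Pam, which amidates peptide hormones (8 of 18), Psd3, an exchange factor for ARF GTPases (8 of 18), the cAMP phosphodiesterase gene Pde4d (8 of 42) and the GTPase regulator gene Arhgap28 (7 of 13) followed. A count favours genes with many windows, and Etl4 and Pde4d lay near the shares over all genes. At the promoter, 9580 genes had a window called by both shluci lists, of which 2317 had a lost window, 1228 an isolated one, and 256 a lost window beside another promoter window called by all 4 lists.

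Genes of 17 lists were set against all protein-coding genes, with the shares just given for all windows and 19.5% lost and 14.5% gained for isolated ones. Among CHD4's own partners, the NuRD list of 15 genes lost 20 of 51 windows and gained 3 of 24. Lost promoter windows were found at Gatad2a and Gatad2b, the scaffold subunits that dock CHD4, at the methyl-CpG binding subunit gene Mbd2 and at the histone chaperone gene Rbbp4, but at Mbd2 and Rbbp4 an shRNA2 peak lay 25 and 0 bp from the window. The Gatad2b promoter stood at shluci percentiles 82.4 and 93.9 with the nearest shRNA2 peak 10733 bp away, and a Gatad2a promoter at 83.8 and 90.5 with 4659 bp. In the ChAHP list 4 of 13 windows were lost, 1 of them at a promoter of Adnp (89.2 and 45.6), and 2 of 9 gained.

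The naive pluripotency list of 19 genes, which holds the factors of the ground state that LIF and the 2 inhibitors maintain, lost 65 of 166 windows (39.2%) and gained 10 of 70 (14.3%). Isolated windows gave 28.9% lost and 11.4% gained, and 18 of the 19 genes had at least 1 lost window. Klf5, a ground-state KLF factor, lost 10 of 22 windows and gained 4 of 11, and its promoter (chr14:99298334-99298834) stood at shluci percentiles 97.3 and 91.8 with no peak in either shRNA2 or shRNA1 list. Esrrb, an orphan nuclear receptor gene, lost 9 of 26 and gained 0, although an shRNA2 peak lay 21 bp from its lost promoter window. All 4 windows of the T-box gene Tbx3 were lost, the promoter at 79.3 and 77.7 with shluci. Promoter windows without an shRNA2 peak within 500 bp were also lost at Sall4 (93.4 and 81.5), Stat3 (92.8 and 89.4) and Dppa5a (38 and 51.0). At Nr0b1 an shRNA2 peak was 387 bp away. In the core list 9 of 24 windows were lost, 5 of them at Sox2, whose lost promoter window (61.9 and 16.9) had an shRNA2 peak at 408 bp. Of isolated windows the core list lost 4 of 24 (16.7%), below the 19.5% of all genes.

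The primed pluripotency list lost 37 of 98 windows (37.8%) and gained 11 of 60, and for isolated windows its share lost was 21.4%, near that of all genes. Dnmt3a, a de novo DNA methyltransferase gene, lost 7 of 15 and Foxd3 lost 6 of 15, its promoter at the unequal percentiles 89.4 and 12.2. At Otx2, 4 of 11 windows were lost and 3 of 9 gained. Sox4 gained 4 of 12 and lost 1 of 9. A promoter window was also lost at Pou3f1 (75.9 and 47.1), and, with an shRNA2 peak 300 and 196 bp away, at Lef1 and Cdh2. The LIF and STAT3 list lost 22 of 68 windows and gained 5 of 30, with lost promoters at Stat3 and at the kinase gene Pim3 (80 and 77.4), while the receptor gene Lifr gained 4 of 9.

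**Figure D5:**
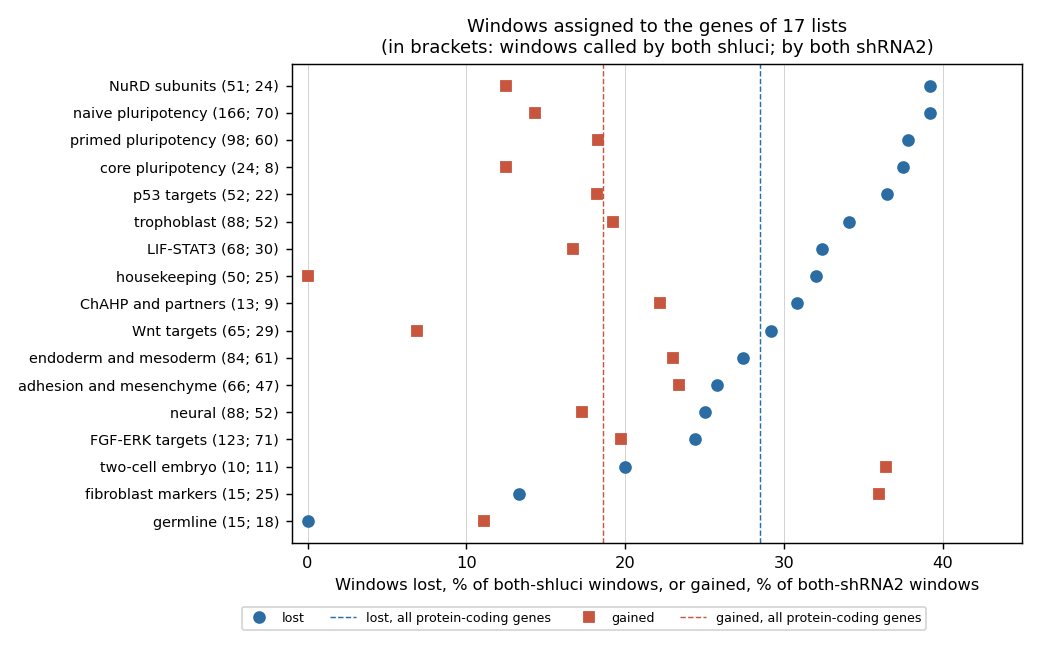
Percentage of windows lost (blue circles, of windows called by both shluci lists) and gained (red squares, of windows called by both shRNA2 lists) for the genes of 17 lists, with both denominators in brackets; dashed lines are all protein-coding genes. The NuRD and naive pluripotency lists have the highest share lost (39.2% each), and the 2 lists with the highest share gained rest on 11 and 25 windows.

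Among lists of signalling targets, the FGF-ERK list lost 30 of 123 windows (24.4%) and gained 14 of 71. Within it Fos, an immediate early gene, lost 7 of 10 windows, and Egr1 lost promoter windows at percentiles 80 and 79.3 and at 55.5 and 75.3, with no shRNA2 peak within 19612 bp. Etv5, an ETS factor gene of the same pathway, lost a promoter window at 78.7 and 70.7. Dusp6, the ERK phosphatase gene, lost 1 of 15 and gained 3 of 12. The Wnt list lost 19 of 65 and gained 2 of 29, with lost promoters at Sp5 (92.3 and 63.2) and, 428 bp from an shRNA2 peak, at Nkd1. The p53 list lost 19 of 52 (36.5%) and gained 4 of 22, with a promoter loss at the death receptor gene Tnfrsf10b (90.9 and 83.2) and, with an shRNA2 peak within 500 bp, at Zmat3 and Perp.

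Lineage lists lost 25 to 34.1% of their windows and gained 17.3 to 23.4%. The endoderm and mesoderm list lost 23 of 84 windows (27.4%) and gained 14 of 61 (23%). Gata6, the primitive endoderm factor, lost a promoter window (57.0 and 20), and at Sox17 one was gained (57.2 and 25 with shRNA2), with a shluci peak 526 bp from the window. Foxa1 gained 3 of 9 windows, and Eomes lost 5 of 13. The trophoblast list lost 30 of 88 and gained 10 of 52, with lost promoters at Tfap2a, Esx1, Fgfr2 and, 442 bp from an shRNA2 peak, Elf5, and a gained promoter at Plac1 (83.0 and 81.5). The neural list lost 22 of 88 and gained 9 of 52, and its promoter losses were at Pou3f2, Tubb3, Pax6, Lhx2 and Pou3f3, the last 3 with an shRNA2 peak within 454 bp. The adhesion and mesenchyme list lost 17 of 66 and gained 11 of 47. It held lost promoters at the integrin gene Itga5 and the laminin gene Lamc1, and a gained one at Twist1, 414 bp from a shluci peak.

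Few windows carried the lists of normally silent genes. The germline list, whose promoters are methylated in somatic cells, lost 0 of 15 windows and gained 2 of 18. Rpl10l alone held 8 of those 15 and 11 of those 18. The two-cell embryo list lost 2 of 10 and gained 4 of 11, with 1 at the promoter of Usp17la (86.2 and 83.6). Zfp352 held 7 of the 10, among them the 2 lost ones. The fibroblast list lost 2 of 15 and gained 9 of 25, of which 4 of 8 were at the collagen gene Col3a1. Housekeeping genes lost 16 of 50 windows (32.0%), with promoter losses at Ppia and Pgk1, and gained 0 of 25. At Ppia, and likewise at Cdh2, Elf5 and Pax6 among the genes above, another promoter window was called by all 4 lists. These shares are counts over few windows that share 4 libraries, so no list is called different from all genes.

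The genes of the study's targets were checked last. Of 6 windows assigned to Chd4, 1 was gained (chr6:125088379-125088879, at 75.4 and 27.3 with shRNA2) and none was lost, and 18 of the 18 libraries outside the Chd4 set called the gained one. At Ctcf, 3 windows were called by both shluci lists and by shRNA2 replicate 2. The promoter of Chd8 (chr14:52257538-52258038) was called by all 4 lists, at 90.7 and 97.3 with shluci and 53.3 and 83.0 with shRNA2. Accessibility of the Chd4 locus does not measure its RNA, so these values do not check the knockdown.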

How the data were processed

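ATAC-seq peak lists of 24 libraries were used, 1 per library. Trim Galore, Bowtie2, MACS2, deepTools and the build mm10 are named in the submitters' processing notes; their versions, settings and roles are not given in the sources used here. The authors deposited, for each peak, an interval and summit, a fold (the ratio of signal to background in that library, with no control named) and the scores −log10 p and −log10 q. The deposited −log10 p and ratio are the authors' values and served only to rank or filter peaks within a list. Lists were used at their deposited length.

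From these, 405819 windows of 250 bp to either side of a summit were laid out (strongest first, without overlap), and the 272857 called by at least 2 libraries were kept. Genomic classes rest on 77200 distinct starts in GENCODE's vM21 basic gene set, and sequence came from GRCm38.p6, whose lower-case letters mark repeats. The rule for calls was tested on simulated lists. Scripts used Python 3.11.15, numpy 2.4.6, pandas 2.3.3 and scipy 1.17.1.

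The windows, the 17 gene lists, the 13 motifs and the rule for named genes were chosen with earlier results of these data known. Named were the 5 strongest lost and gained windows at protein-coding promoters and the 5 beyond 500 bp from any start, the 5 genes with most lost or gained windows, list members with a promoter call or with most windows, and Chd4, Ctcf and Chd8. Isolated windows, the windows named from them, the merged peaks and the octamer and NF-Y pair were added after the data were seen. The deviations of libraries with the same number in both groups had a correlation of 0.00 over 161761 windows. That value does not settle pairing, since replicate 1 was the longer list in both groups. Windows called by 1 list of each group shared the number in 8340 and 2190 cases and differed in it in 3289 and 3849. The numbers are not known to pair the libraries and were not taken as pairs.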

Additional observations from a re-analysis of the deposited data

How the results depend on the processing

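Of 122 alternatives to 12 results, 43 moved the value, 3 turned its sign and 76 did neither, which for differences between groups means that the sign alone was kept; causes of these shifts were not tested. With a −log10 q of at least 10, 6820 windows were lost and 1001 gained, the promoter shares were 33.5% and 15% (18.5% of lost and 6.81% of gained windows at any annotated promoter as reported), the CTCF motif shares 5.43% and 5.79% (6.07% and 4.68% as reported), and the CTCF motif share per library differed by 0.682 points in the opposite direction to −0.742. With windows covered to at least 50%, 6393 were lost and 492 gained, with promoter shares of 34.1% and 15.2% and CTCF shares of 4.46% and 4.07%, and the octamer share of gained minus that of windows called by all 4 turned from 2.20 to −1.66 points. Lists reduced to the shortest gave promoter shares of 20.6% and 7.78%, a summit inside the window 19.6% and 7.90%, promoters within 1000 bp 24% and 10.4%, isolated windows 14.8% and 5.71%, and merged peaks 21.4% and 8.58%. The CTCF share was 6.57% of isolated lost windows, and the consensus without mismatch gave 1.49% and 0.962%. Merged peaks gave 17832 lost and 10873 gained regions. At the shortest length of 80619 peaks a list, 10865 of the 13372 lost windows were among the 15338, and 6669 of the 8805 gained windows were among the 9144.

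Leaving out 1 library gave 22589 to 39944 lost and 12194 to 34401 gained windows, since fewer lists must then meet the rule. Those counts were 39944 lost without shluci replicate 2, 27116 without shluci replicate 1 and 25131 without shRNA2 replicate 1, and 34401 gained without shRNA2 replicate 2 (more than the 22589 lost there), 17494 without shRNA2 replicate 1 and 14432 without shluci replicate 1. Promoter shares ran from 11.5 to 21.6% of lost and from 5.80 to 8.45% of gained windows, and the CTCF share of gained windows from 4.81% to 5.57%. The octamer difference ran from −0.0692 points without shRNA2 replicate 2 to 1.88 points without shluci replicate 2, and the NF-Y difference (3.33 points as reported) fell to 0.736 without shRNA2 replicate 2 and was 13.4 at a −log10 q of at least 10. Read within replicate pairs (replicate block), replicate 1 alone gave 50484 lost and 41300 gained windows and replicate 2 alone 40758 and 26071. For the 4 shares per library the block left each difference as it was, −3.53 points for promoters, −0.742 for the CTCF motif, −1.56 for G+C and 2.18 for repeats, with a smallest exact permutation p of 0.500. The numbers are not known to pair the libraries, and 2 libraries a group set the limit on every comparison.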

Other observations

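Lost promoter windows differed from gained ones in sequence. Of 1291 isolated lost protein-coding promoter windows, 14.1% held the NF-Y letters CCAATCA, 8.21% the ETS motif CCGGAAGT and 3.56% the CRE letters TGACGTCA, and the 5579 called by all 4 lists held them in 11.2%, 7.87% and 3.23%. Of 200 isolated gained protein-coding promoter windows, 6.0% held NF-Y, 1.5% ETS and 2.5% CRE letters. Their median G+C content was 54.8%, against 62.5% in isolated lost windows and 59.9% in those called by all 4, and they held a mean of 19.4 CpG dinucleotides against 35.0 and 31.3.

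With isolated gained distal windows split by masking, octamer and NF-Y letters were more frequent in the repeat-rich ones, to which the pair with 10 bases between contributed. Of 1287 isolated gained distal windows that were at least 50% repeat-masked, 17.8% held the octamer and 25.6% the NF-Y letters, while the 5709 less masked ones held them in 7.44% and 10.5%. Masked distal windows called by all 4 lists (2306) held them in 7.63% and 13.1%, and masked isolated lost ones (999) in 5.91% and 9.41%. The pair was in 129 of the 1287 masked gained windows, and without it the octamer share was 8.64% and the NF-Y share 17.4%, against 5.75% and 11.3% for masked windows called by all 4, also without the pair. The KLF letters were in 11.1% of the masked gained windows, against 8.28% of masked windows called by all 4 and 8.01% of masked lost ones, the opposite order to that of all distal windows.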
